A study of Mus musculus with 30 samples.

Results

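HPC7 cells carrying a vector for wild-type STAT3 were compared with HPC7 cells carrying the empty vector, by sequencing of their mRNA. HPC7 is a mouse haematopoietic progenitor line that grows in stem cell factor, and the labels give its strain as 129SV for these samples. Members were the RNA libraries whose titles name HPC7 with STAT3, 3 libraries, or HPC7 with the dsRed empty vector, 3 libraries, which makes 6 of the 18 RNA libraries and of the 30 samples of the series. The remaining RNA libraries are HPC7 with STAT3 Y640F and the line HPCLSK, strain C57BL/6N, with the same 3 vectors. The 12 chromatin samples were not analysed here. All groups were grown in IMDM with serum and stem cell factor, received no treatment, and were transduced with retroviral vectors, so the empty vector group also went through transduction. The series text calls the 3 libraries of a group technical replicates. Every error and p-value below therefore measures the spread between libraries of 1 culture or transduction, as far as the labels tell, and a property of the particular transduced population cannot be told apart from an effect of STAT3. Whether the cultures were clonal is not given in the sources used here.

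STAT3 is a transcription factor that waits in the cytoplasm until Janus kinases bound to cytokine receptors phosphorylate it, after which it enters the nucleus as a dimer and binds palindromic DNA elements. Its best known early targets include Socs3, which feeds back on the receptors, the kinase gene Pim1 and the NF-kB cofactor gene Bcl3. Cish, a feedback gene of the same family, is best known as a target of STAT5 and was read beside them. In the blood system STAT3 acts downstream of interleukin 6, interleukin 10 and granulocyte colony-stimulating factor.

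The promoter table of RefSeq (GRCm38.p6, 250 bases before to 50 after each annotated start) holds Stat3 and these 4 classic STAT targets. It was searched for the letters TTCNNNGAA, a palindrome that reads alike on both strands, because these genes are the ones by which STAT activity is usually read. Socs3 and Cish held it, and the windows of 30 bases or fewer with the match in capitals are shown 5′ to 3′ on the gene's strand.
Socs3, chr11:117969502-117969530, minus strand: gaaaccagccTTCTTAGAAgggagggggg
Cish, chr9:107296654-107296683, plus strand: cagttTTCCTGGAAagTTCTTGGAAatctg
The match of Socs3 began 154 bases before the start, and those of Cish lay at and just after it. The promoters of Stat3, Pim1 and Bcl3 held no match in this window. A match was present in 8.30% of all 32851 promoters.

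Library totals of the 6 libraries ran from 23127740 to 37178037 counts, and 12683 genes passed the filter on low counts. Levels are given as CPM, counts relative to scaled library totals, and a gene is called when edgeR's quasi-likelihood test gave an adjusted p under 0.05 (Benjamini-Hochberg over all genes tested) and the fold was 2 or more. Among themselves the empty vector libraries stood further from each other than the STAT3 libraries did. Over genes with at least 20 counts in the pair, the chi-square per degree of freedom was 21.9, 13.5 and 11.1 between empty vector libraries and 3.34 to 4.25 between STAT3 libraries. The share of counts on mitochondrially encoded genes was 3.19%, 1.90% and 2.88% with empty vector and 2.34 to 2.62% with STAT3. Markers named for the line were expressed in both groups, although other progenitor genes such as Cd34 fell. Kit was expressed at 1294 ± 46.5 CPM in the empty vector group and 1508 ± 24.6 in the STAT3 group (SD, n = 3 each, here and below), Gata2 at 176 ± 3.30 and 225 ± 0.390, and Spi1 at 67.7 ± 3.02 and 71.8 ± 1.25. Lmo2, Tal1, Lyl1, Myb and Runx1 were likewise expressed, and none of the 8 was called.

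More genes were called lower than higher in the STAT3 libraries. Calls numbered 916 among 12683 genes (7.22%), of which 230 were higher (1.81%) and 686 lower (5.41%). For 56.0% of genes the libraries of the groups did not overlap at all, so separate groups by themselves are common here. The imbalance grew with the size of the change: at a fold of at least 4 31 genes were higher and 281 lower, at 16 there were 6 and 81, and at 32 there were 3 and 52. Calls were most frequent among genes of low level. Of genes with 1 to 5 CPM in the higher group 14.3% were called lower, against 0.497% of those at 100 CPM or more, and for calls higher these shares were 5.07% and 0.265%. The adjusted p alone, with no fold minimum, gave 2956 genes higher (23.3%) and 3209 lower (25.3%). The median log2 fold change of all genes was 0.00, which the scaling all but sets.

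**Figure D1:**
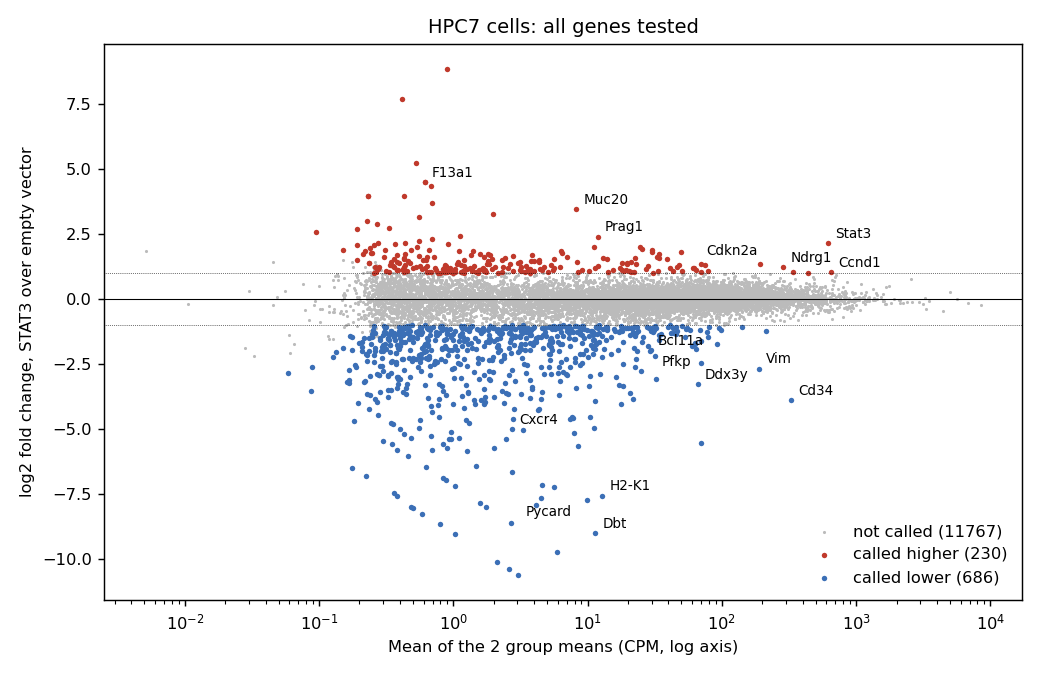
Each point is a gene: the x axis is the mean of the 2 group means in CPM on a log axis, the y axis the log2 fold change of STAT3 over empty vector, and dotted lines mark a fold of 2. The 686 genes called lower reach much further from 0 than the 230 called higher, mainly below 20 CPM.

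Stat3 itself was read at 227, 237 and 217 CPM in the empty vector libraries and at 1019, 1018 and 979 CPM in the STAT3 libraries. All STAT3 libraries lay above all empty vector libraries, and the log2 fold change was 2.15 ± 0.04 (SE; adjusted p = 3.8e-13). Stat3 (ENSMUSG00000004040.16; chromosome 11, 100885098 to 100939540) is encoded on the minus strand, and counts over its exons hold vector and endogenous RNA together. Of 22 genes for JAK-STAT components, 0 were called higher and 1 lower, against 1.81% and 5.41% over all genes. The list median was 0.09. That gene was Stat4, the STAT of the interleukin 12 response, at 19.6, 19.2 and 15.5 CPM with empty vector and 5.22, 4.08 and 4.92 with STAT3 (−1.93 ± 0.11, adjusted p = 1.9e-08). Jak1, at 467 and 442 CPM, had a log2 fold change of −0.08, and Jak2, at 140 and 162 CPM, of 0.20.

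The 4 classic STAT targets did not move together. Cish, the only 1 of them called higher, stood at 4.20, 5.03 and 4.39 CPM with empty vector and at 12.9, 12.2 and 11.4 with STAT3, a log2 fold change of 1.43 ± 0.10 (adjusted p = 1.3e-07). Bcl3 went the other way, from 5.50, 6.62 and 5.12 CPM to 1.27, 0.842 and 0.945 (−2.49 ± 0.17, adjusted p = 8.7e-08). Neither gene's groups overlapped. Pim1 fell from 105, 114 and 105 CPM to 51.0, 54.2 and 50.5 (−1.06 ± 0.05, adjusted p = 4.4e-09), and Socs3, at 3.50, 3.35 and 2.75 against 1.79, 1.77 and 1.48 CPM, missed the fold minimum at −0.91 ± 0.14. Without empty vector replicate 3 Socs3 passed it, at −1.02. Over the whole list of STAT3 and cytokine-response targets 2 of 27 tested members were called higher and 5 lower, and the median was −0.20. The shares over all genes were 1.81% higher and 5.41% lower. Ccnd1 (cyclin D1, which drives entry into S phase) was the second riser, and the lower genes also held Il6st, the shared receptor chain gp130 through which interleukin 6 activates STAT3, at 5.26, 5.46 and 4.60 CPM against 2.07, 1.44 and 1.96 (−1.49 ± 0.15, adjusted p = 3.3e-06). Among the members not called were Myc (0.32), Mcl1 (0.22) and Bcl2l1 (0.71).

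Of the cell-cycle genes, Ccnd1 and Cdkn2a rose from high levels. The list counts in this paragraph stand against 1.81% of all genes called higher and 5.41% lower. Ccnd1 was at 408, 423 and 450 CPM with empty vector and 894, 877 and 854 with STAT3 (1.03 ± 0.05, adjusted p = 1.3e-09). Cdkn2a, whose locus encodes the inhibitors p16 and p19ARF that oppose cyclin D kinases and MDM2, was at 109, 111 and 108 CPM and at 283, 277 and 274 (1.35 ± 0.04, adjusted p = 4.6e-11). In both genes the groups lay far apart and the libraries of a group close together. Gene counts do not separate the 2 products of Cdkn2a, which lies on chromosome 4 at 89274471 to 89294653. Of 32 cyclins, kinases and inhibitors tested, these 2 were called higher and Cdkn1c (p57, an inhibitor linked to quiescence) lower, at 1.25 ± 0.400 and 0.218 ± 0.0729 CPM (−2.43 ± 0.35). Ccnd2 stood at 498 and 829 CPM and Cdk6 at 418 and 591, log2 fold changes of 0.73 and 0.50 that were not called. Genes of proliferation and DNA replication had 0 of 39 calls with edgeR and with DESeq2 and a median of 0.05, with Mki67 at 0.23, Top2a at 0.24 and the replication licensing gene Mcm6 at −0.78. Log2 fold changes over the list ran from −0.78 to 0.99. In the p53 pathway 2 of 22 genes were called higher, Cdkn2a and the metabolic regulator Tigar (32.7 ± 1.83 to 68.5 ± 0.383 CPM, 1.06 ± 0.05), and 2 lower, Btg2 (−1.17) and the death receptor gene Tnfrsf10b (−1.12). Btg2 was no longer called without empty vector replicate 1, at −0.84. The BCL2 and cell-death list had 0 of 25 calls with edgeR and DESeq2 and a median of 0.08. At an unadjusted p under 0.05, edgeR gave 18 higher and 14 lower proliferation genes and 9 higher and 7 lower cell-death genes.

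**Figure D2:**
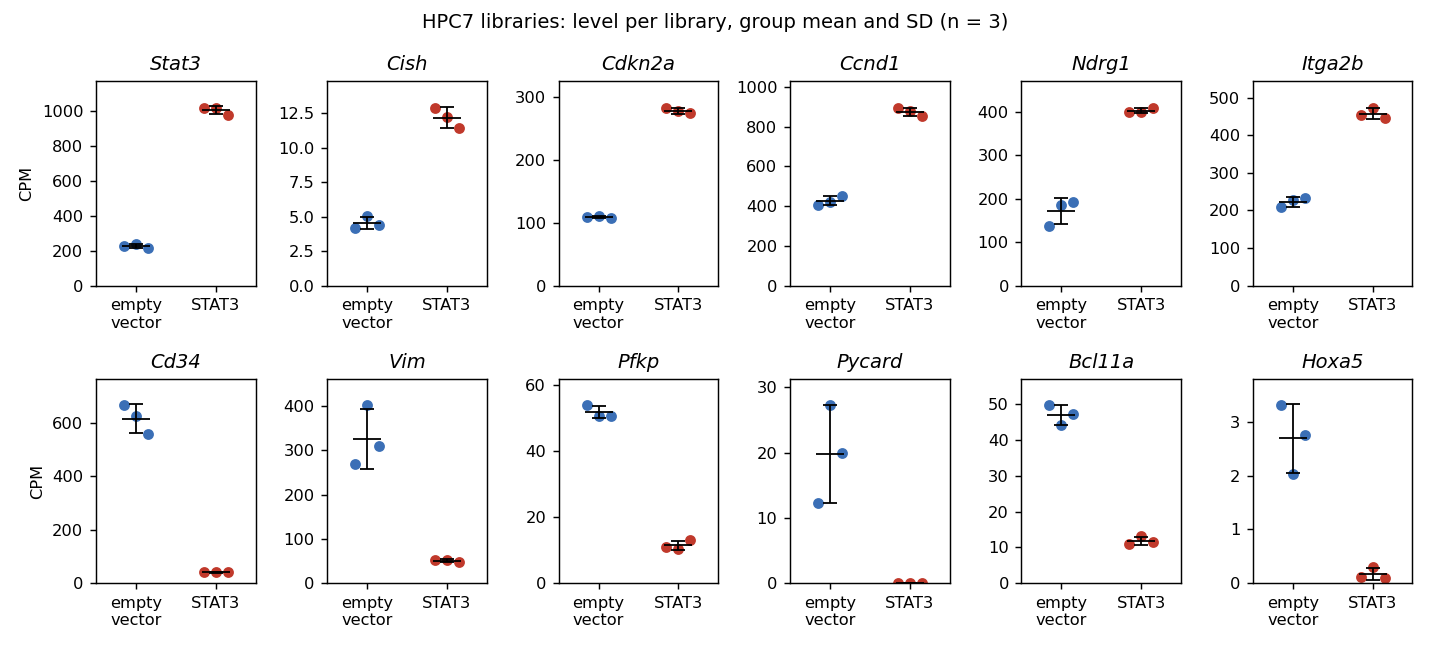
Points are libraries (empty vector blue, STAT3 red) and the y axes give CPM from 0. The wide horizontal mark is the mean and the bar the SD of 3 libraries. In all 12 genes the groups are separate, and Pycard spreads from 12.3 to 27.2 CPM among empty vector libraries.

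Stem and progenitor genes that fell encode surface proteins, transcription factors and a cell-cycle inhibitor. Of 27 tested 8 were called lower and 1 higher, against 5.41% and 1.81% over all genes. Among all genes at 1 to 5 CPM 14.3% were called lower. With a minimum of 5 CPM in 3 libraries, at which low-level members were not tested, 3 were called lower and 1 higher. Cd34, the sialomucin by which progenitors are sorted, stood at 664, 623 and 558 CPM with empty vector and at 42.8, 41.1 and 40.8 with STAT3 (−3.89 ± 0.07, adjusted p = 2.1e-13). Procr, the protein C receptor of stem cells, was at 13.63, 15.99 and 15.69 CPM and at 2.97, 2.55 and 2.26 (−2.54 ± 0.11). Both genes' groups were widely separate. The stem cell transcription factor gene Hlf had 102 counts in the pooled empty vector group and 1 with STAT3, a ratio of 122 (95% counting interval 21.3 to 4850). Flt3 (−2.57), Slamf1 (−1.96), Ly6a (−1.58), Gfi1 (−2.43) and Cdkn1c were the others. Cd34 lies on chromosome 1 at 194938819 to 194961279, where most genes read somewhat lower with STAT3, by far less than Cd34 did. The early-response gene Egr1 was the riser, at 41.7, 46.0 and 32.1 CPM against 104, 112 and 83.3 (1.33 ± 0.12), and it was not called in the edgeR fit over all 18 libraries (adjusted p = 0.0729). Kit, Erg and Gata2 were among the members not called. In bulk RNA, fewer cells of a kind and less RNA per cell cannot be told apart.

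Hox genes encode homeodomain factors of progenitor self-renewal, and 4 neighbours of the Hoxa cluster on chromosome 6 fell together. The list also holds cofactor genes and Lhx2, a LIM homeobox gene that is not a Hox gene. Of its 12 tested members 6 were called lower, Lhx2 among them, and 0 higher, against 5.41% and 1.81% over all genes. Hoxa5 stood at 3.30, 2.02 and 2.75 CPM with empty vector and at 0.124, 0.299 and 0.101 with STAT3 (−3.87 ± 0.34, adjusted p = 7.5e-07), and Hoxa6 at 1.30, 0.860 and 1.14 against 0.0309, 0.0543 and 0.0337 (−4.64 ± 0.44, adjusted p = 1.3e-06). Hoxa3 and Hoxa7 had at most 1 count over the 3 STAT3 libraries. These 4 neighbours lie between 52169062 and 52221854 on chromosome 6, and Hoxa3 overlaps Hoxa5 and Hoxa6, so their reads are not independent. The levels are low, and with a filter at 5 CPM 1 of the 6 calls was left to be tested and called. It was Lhx2 (8.998 ± 1.21 to 3.77 ± 0.390 CPM, −1.25 ± 0.12), so no call of a Hox gene was left there. Hoxb3 fell by 1.12 while Hoxb4, at 7.08 and 8.20 CPM, was not called (0.21), and the cofactor genes Meis1 (0.14), Pbx2 (0.10) and Pbx3 (0.17) were not called. Among 42 haematopoietic transcription factor genes, 4 were called lower and 1 higher, against 5.41% and 1.81% over all genes. Bcl11a, the repressor of fetal globin and a lymphoid factor, stood at 49.5, 44.1 and 47.2 CPM against 11.03, 13.10 and 11.50 (−1.98 ± 0.08, adjusted p = 7.8e-10). Sox6, which works with Bcl11a at globin genes, rose from 2.04 ± 0.249 to 5.59 ± 0.527 CPM (1.45 ± 0.15), and the embryonic globin genes Hbb-y (2.06) and Hbb-bh1 (1.04) rose from under 1 CPM. Globin genes share sequence, so reads may be divided unevenly between them.

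Myeloid genes were called lower in a larger share than all genes, and 5 of 22 platelet genes were called higher. Of 8 primary granule genes tested 4 were called lower and 0 higher, and of 14 later granulocyte genes 8 lower and 1 higher, against 5.41% lower and 1.81% higher over all genes. Among all genes at 1 to 5 CPM 14.3% were called lower. With a minimum of 5 CPM in 3 libraries, low-level members were not tested. Calls were then 1 lower and 0 higher for primary granule genes, and 1 lower and 1 higher for later granulocyte genes. For the monocyte, macrophage and dendritic genes below they were 3 lower and 1 higher. Csf3r, the receptor of granulocyte colony-stimulating factor, was at 37.3, 53.8 and 41.1 CPM against 20.3, 20.5 and 20.9 (−1.09 ± 0.10), and Cebpa, the factor of granulocyte commitment, at 7.86, 4.77 and 3.60 against 2.01, 2.31 and 1.79 (−1.38 ± 0.24). In both genes the empty vector libraries were scattered and the STAT3 libraries close together. The summed level of primary granule genes was 779, 546 and 433 CPM in the empty vector libraries and 407 to 429 with STAT3, so empty vector replicate 1 stood apart. Mpo, the enzyme that makes up most of that sum, was at 670, 417 and 320 CPM against 261, 273 and 281 and was not called (−0.79 ± 0.18). The oxidase subunit gene Ncf1 went the other way, from 21.6 ± 0.164 to 45.2 ± 0.301 CPM (1.06 ± 0.05), on chromosome 5, whose genes as a whole read higher. The summed level of the later granulocyte genes was 209 to 239 CPM with empty vector and 169 to 172.5 with STAT3. Monocyte, macrophage and dendritic genes had 7 of 15 lower and 2 higher at summed levels of 196 to 250 and 140 to 145 CPM, such as the macrophage growth factor gene Csf1 (12.02, 9.33 and 6.76 CPM against 1.30, 1.33 and 1.08, −2.89 ± 0.21) and Adgre1 (−3.34). Itgax, encoding CD11c, rose from 7.26 ± 0.239 to 20.9 ± 0.988 CPM (1.52 ± 0.08), and F13a1 from 0.0503 ± 0.0254 to 1.17 ± 0.113. Mmp8, Chil3, Ly6g and Siglech, markers of mature granulocytes and plasmacytoid dendritic cells, had 0 counts in all 6 libraries.

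Megakaryocyte and platelet genes had 5 of 22 called higher and 0 lower, against 1.81% and 5.41% over all genes, with a median of 0.34. The one at high level was Itga2b, the alpha chain of the fibrinogen receptor, at 209, 228 and 232 CPM against 453, 473 and 445 (1.03 ± 0.04, adjusted p = 1.0e-09). The others, Gp5, Clec1b, Vwf and Tubb1, were under 3 CPM in both groups, and without STAT3 replicate 1 only 3 of the 5 were called, Gp5 reading 0.96 and Clec1b 0.90. Gp5 also missed the fold minimum without empty vector replicate 2 (0.98) and Clec1b without empty vector replicate 3 (0.79). Itga2b read 0.99 without empty vector replicate 1. Its partner Itgb3, at 345 and 317 CPM, had a log2 fold change of −0.12, and Pf4, at 96.3 and 129 CPM, of 0.42. With a minimum of 5 CPM in 3 libraries the platelet list had 1 call higher and 0 lower. With edgeR's test against a fold of 1.5 it had 2 higher and 1 lower. Among all genes at 1 to 5 CPM 5.07% were called higher. Erythroid genes had 2 of 28 higher, the embryonic globins, and 1 lower, although their summed level was 3547 to 3640 CPM with empty vector and 5021 to 5210 with STAT3. Most of that difference was carbonic anhydrase 2, Car2, at 1899 and 3213 CPM, not called at 0.76. Of 11 mast cell, basophil and eosinophil genes, Il1rl1, the interleukin 33 receptor, rose from 51.5 ± 6.61 to 107 ± 4.84 CPM (1.06 ± 0.08) and 3 fell, Mitf, Hdc and Il5ra. Il1rl1 read 0.99 without empty vector replicate 3. For B cells 5 of 22 listed genes could be tested and 1 was lower (Ighm, −1.75), and for T and natural killer cells 11 of 27, with 2 higher and 2 lower, among the latter Cd4 (1.01 ± 0.0697 to 0.287 ± 0.111 CPM, −1.81 ± 0.32). The defining genes Pax5 and Ms4a1 of B cells, Cd3e and Cd8a of T cells, and Col1a2 and Col3a1 of stroma had 0 counts in all 6 libraries. The summed levels were 18.6 to 21.1 CPM against 14.5 to 15.8 for the B cell list, 164 to 188 against 197.6 to 199.7 for the T and natural killer cell list, and 584.5 to 666 against 637 to 658 for stroma and endothelium. The part of other cell types in the lists above was not tested.

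**Figure D3:**
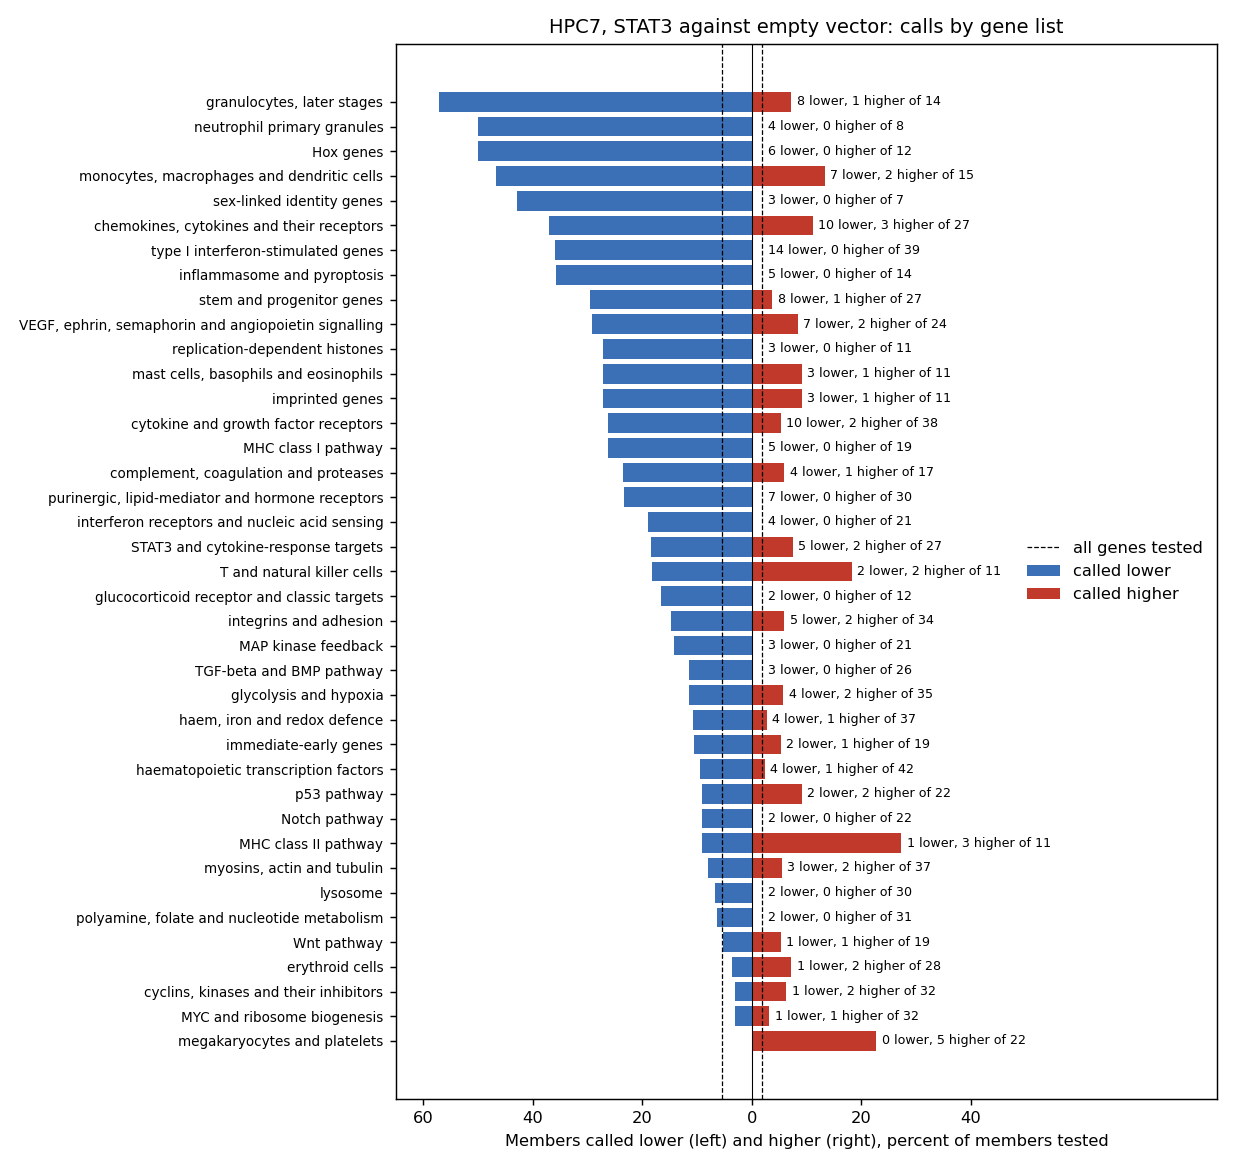
Bars give the percent of tested members of each list called lower (blue, left) and higher (red, right), with the counts beside them, for lists of at least 5 tested members and 2 calls. Dashed lines mark the shares over all genes tested, 5.41% lower and 1.81% higher. Granulocyte, Hox and monocyte lists reach furthest left, and platelet genes lie on the right alone.

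Interferon-stimulated genes, which respond through the interferon-response element, were lower as far as they were called. Of 39 tested 14 were lower and 0 higher (12 to 16 lower when any 1 library was left out), with a median of −0.78. The shares over all genes were 5.41% lower and 1.81% higher. The restriction factor gene Ifitm3 stood at 5.74, 11.1 and 7.93 CPM with empty vector and 0.649, 0.380 and 0.270 with STAT3 (−4.22 ± 0.35, adjusted p = 3.8e-07), and its neighbour Ifitm1 at 1.26, 2.41 and 1.96 against 0.0927, 0 and 0.0675. In both genes empty vector replicate 2 was highest and no STAT3 library came near. DESeq2 likewise called 0 of them higher, and edgeR gave 2 higher and 29 lower at an unadjusted p under 0.05. Members with a high basal level were not called, such as Samhd1 (163 and 128 CPM, −0.35), Eif2ak2 (−0.22) and Usp18 (0.23). The RefSeq table held promoters for 9 of the 14 lower genes, too few for a share over the list. The core of the interferon-response element was searched as GAAA, any 2 bases and GAAA, with TTTC, any 2 bases and TTTC for the other strand, and overlapping matches were counted. It was present in 6 of the 9 promoters, in 15 of the 30 promoters of tested interferon-stimulated genes that the table holds, and in 3.44% of all promoters, counts from an incomplete table from which nothing is read. Of the 6 promoters 4 are shown, each with a single match in capitals. In the Isg15 window, further matches that start at −78 and −66 from the gene's start overlap it and are not marked.
Isg15, chr4:156200871-156200900, minus strand: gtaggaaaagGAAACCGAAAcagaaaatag
Ifit1, chr19:34640794-34640823, plus strand: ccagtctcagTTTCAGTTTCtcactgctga
Ifitm3, chr7:141010706-141010735, minus strand: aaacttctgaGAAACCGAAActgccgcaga
Gbp2, chr3:142620594-142620623, plus strand: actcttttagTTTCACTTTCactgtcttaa
Isg15 read 1.86 and 0.767 CPM in the groups (−1.24), Ifit1 2.19 and 0.575 (−1.89) and Gbp2, a guanylate-binding protein, 1.14 and 0.190 (−2.59).

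The inflammasome list had 5 of 14 tested genes lower and 0 higher, at a median of −0.68. For this and the next lists the shares over all genes were 5.41% lower and 1.81% higher. Pycard, the ASC adaptor that links sensors to caspase 1, stood at 12.3, 27.2 and 19.96 CPM with empty vector and at 0.124, 0.0815 and 0.0675 with STAT3 (−7.70 ± 0.42, adjusted p = 8.7e-09). It lies on chromosome 7 at 127989708 to 127993867. The flagellin and needle-protein sensor gene Nlrc4 fell from 10.2, 11.7 and 12.5 CPM to 2.38, 2.31 and 2.36 (−2.29 ± 0.11). The other 3, Ifi203 (−1.44), Mndal (−1.26) and Ifi204 (−1.22), are related genes of the DNA-sensing family on chromosome 1 that share sequence, and Aim2 of the same family, at 103 and 72.4 CPM, was not called (−0.51). Of 21 genes of interferon receptors and nucleic acid sensing 4 were lower and 0 higher: the kinase gene Ikbke (3.02 ± 0.422 to 0.2002 ± 0.0947 CPM, −3.86 ± 0.27), the Toll-like receptor chaperone gene Unc93b1 (−1.83), Tlr4 (9.55, 8.94 and 10.4 CPM against 2.84, 2.69 and 3.24, −1.73 ± 0.11) and Tlr9 (−1.32). Irf3 (0.01), Tbk1 (0.01) and Cgas (0.09) were among those not called. In the MHC class I pathway 5 of 19 were lower, H2-K1 and its transactivator Nlrc5 most of all, with H2-D1 at 126, 160 and 141 CPM against 40.8, 44.5 and 42.5 (−1.74 ± 0.08) and the immunoproteasome genes Psmb8 (−1.34) and Psmb9 (−1.32). B2m was at 341 and 197 CPM, not called at −0.79. Of 11 class II pathway genes tested 3 were called higher and 1 lower, all from low levels. H2-DMb1 rose from 1.70 ± 0.310 to 4.38 ± 0.145 CPM, and H2-Aa (1.34) and H2-Eb1 (1.29) rose as well. H2-Oa fell from 7.91 ± 0.0525 to 2.32 ± 0.463 CPM. H2 genes share sequence, and the split of reads between them is uncertain.

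Over all genes 5.41% were called lower and 1.81% higher. Of the calls 25.11% were higher, so lower calls are the common kind in any list. Of 38 cytokine and growth factor receptor genes 10 were lower and 2 higher, and the median was −0.26. Il10ra, the ligand-binding chain of the interleukin 10 receptor, which signals through STAT3, had 265 counts with empty vector and 1 with STAT3, a ratio of 316 (95% counting interval 56.2 to 12526). The interleukin 1 family receptor genes Il1r2 (4.37 ± 0.264 to 1.04 ± 0.0818 CPM, −2.07 ± 0.15) and Il1rap (−1.06) were lower as well, as was Il1r1 from under 1 CPM. Il12rb1, of the interleukin 12 receptor, rose from 4.83, 5.98 and 6.38 CPM to 12.5, 13.6 and 11.4 (1.12 ± 0.11). Of 27 chemokines, cytokines and their receptors 10 were lower and 3 higher. Cxcr4, which holds progenitors in the marrow, was at 8.33, 3.27 and 4.36 CPM against 0.0618, 0.217 and 0.202 (−5.00 ± 0.47), with empty vector replicate 1 highest, and Ccr1 (−1.64), Ccr2 (−1.42) and Ccl9 (−1.41) were lower too. Of the 3 risers Csf2, Il12a and Cxcr5, the last 2 were not called without empty vector replicate 1 (0.88 and 0.97) or without STAT3 replicate 1 (0.88 and 0.94), which left 1, and Il12a was also not called without replicate 2 of either group (0.88 without empty vector replicate 2 and 0.96 without STAT3 replicate 2). Receptors for purines, lipid mediators and hormones had 7 of 30 lower and 0 higher. The acid-sensing receptor gene Gpr65 stood at 27.9, 28.9 and 29.2 CPM against 3.86, 3.10 and 3.95 (−2.99 ± 0.09, adjusted p = 4.0e-11), the cysteinyl leukotriene receptor gene Cysltr1 at 10.7 ± 0.869 against 2.04 ± 0.290 (−2.40 ± 0.18), and Rxra, the retinoid X receptor that pairs with many nuclear receptors, at 16.8, 20.3 and 16.7 against 4.61, 4.10 and 3.61 (−2.12 ± 0.10). The retinoic acid receptor gene Rarg (−1.55) and the vitamin D receptor gene Vdr (−1.11) were lower and Rara (0.06) was not called.

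Among adhesion and shape genes the widest change at high level was that of vimentin. Vim, the intermediate filament vimentin, stood at 269, 401 and 309 CPM with empty vector and at 52.6, 52.7 and 47.6 with STAT3 (−2.67 ± 0.11, adjusted p = 9.5e-10). The STAT3 libraries all lay below the lowest empty vector library. HPC7 with Y640F, measured against the same empty vector libraries, stood at 279 CPM for Vim and at 197 CPM for Cd34. The counts of calls in the lists that follow stand against 5.41% lower and 1.81% higher over all genes. Of 37 myosin, actin, tubulin and related genes 3 were lower (Vim, Tubb2b at −1.51 and Tuba1a at −1.07, or −0.97 without empty vector replicate 2) and 2 higher, the bundling protein gene Fscn1 (0.354 ± 0.137 to 1.90 ± 0.434 CPM, 2.41 ± 0.27) and Tubb1. Actb (−0.12), Myh9 (−0.11) and Cfl1 (−0.12) were not called. Of 34 integrin and adhesion genes 5 were lower and 2 higher. The tetraspanin gene Cd53 was at 17.2, 20.2 and 17.5 CPM against 2.72, 2.17 and 2.23 (−2.94 ± 0.15), and Itga2, the collagen receptor chain, at 7.503, 11.44 and 7.699 against 1.17, 1.63 and 1.48 (−2.62 ± 0.19). Among VEGF, ephrin, semaphorin and angiopoietin genes 7 of 24 were lower and 2 higher: the ephrin receptor gene Ephb4 fell from 17.3 ± 4.27 to 4.66 ± 0.622 CPM (−1.88 ± 0.15) and Efnb1 by 1.42, while Epha2 rose from 3.73 ± 0.834 to 8.81 ± 0.439 (1.22 ± 0.13) and the VEGF receptor gene Kdr from 0.108 ± 0.0263 to 1.01 ± 0.160 (3.16 ± 0.33). Of the listed endothelial genes Kdr alone was called.

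Metabolic genes were called in both directions. Pfkp, the platelet isoform of phosphofructokinase, stood at 53.8, 50.6 and 50.6 CPM with empty vector and at 11.10, 10.35 and 13.02 with STAT3 (−2.17 ± 0.09, adjusted p = 5.9e-10), and Egln1, the prolyl hydroxylase that marks hypoxia-inducible factor for destruction, at 24.4 ± 2.61 against 10.8 ± 0.163 (−1.18 ± 0.07). The stress-responsive gene Ndrg1 rose from 138, 185 and 193 CPM to 398, 399 and 409 (1.23 ± 0.09, adjusted p = 1.3e-07). At low level the aldolase gene Aldoc fell from 1.501 ± 0.525 to 0.369 ± 0.121 CPM (−1.96 ± 0.32), and the lactate transporter gene Slc16a3 rose from 0.777 ± 0.0709 to 1.75 ± 0.215 (1.154 ± 0.27). Aldoa (0.21), Ldha (0.08) and Pkm (0.09) were among the members not called. In all 4 of 35 glycolysis and hypoxia genes were lower and 2 higher, against 5.41% and 1.81% over all genes. In haem, iron and redox defence 4 of 37 were lower, the metallothionein gene Mt1 (13.2, 9.76 and 8.81 CPM against 1.98, 1.79 and 1.38, −2.60 ± 0.17), Gsta4 (−2.54), Gstm1 (−1.81) and the haem oxygenase gene Hmox1 (−1.16). With edgeR, and likewise with DESeq2, 0 genes were called among 79 cytosolic ribosomal proteins (median 0.00), 50 nuclear genes of the respiratory chain (−0.09), 32 genes of cholesterol and fatty acid synthesis (0.23) and 27 of amino-acid stress and the unfolded-protein response (0.13). At an unadjusted p under 0.05, edgeR gave 14 higher and 17 lower ribosomal protein genes, 4 and 21 of the respiratory chain, 19 and 4 of lipid synthesis and 13 and 3 of the stress list. Of 44 listed chromatin regulators 1 was called, Hdac9, a class II deacetylase, at 2.40, 3.48 and 3.72 CPM against 0.309, 0.0543 and 0.236 (−4.03 ± 0.36). The list does not hold the chromatin genes Chd3 and Arid5b, given below, which were lower with STAT3 as well.

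Called genes at 5 CPM or more with separate groups were ranked, leaving out Gm, Rik, LOC and accession-like symbols. The 10 with the largest log2 fold changes were Muc20, Prag1, Stat3, Zcwpw1, Draxin, Cd200r4, Abcb9, Gnaz, Lat2 and Pdgfb. Muc20, a cell-surface mucin, was at 0.393, 1.55 and 2.05 CPM with empty vector and at 14.96, 15.43 and 15.18 with STAT3 (3.45 ± 0.24), so its fold depends on which empty vector library is taken. Prag1, a pseudokinase scaffold, went from 3.84 ± 0.409 to 19.99 ± 0.811 CPM (2.39 ± 0.10) and Zcwpw1, a histone methylation reader, from 9.86 ± 0.640 to 39.7 ± 0.333 (2.00 ± 0.06). Lat2, an adaptor of immune receptors, rose from 18.7, 24.2 and 22.4 CPM to 78.3, 76.4 and 75.5 (1.82 ± 0.08), and the platelet-derived growth factor gene Pdgfb from 12.9, 12.9 and 14.4 to 47.1, 46.7 and 47.7 (1.81 ± 0.06). Zcwpw1, Abcb9 and Lat2 lie on chromosome 5. At the other end stood Nr3c1, Laptm4b, Ppic, Dbt, Zfp770, Zfp462, Pycard, Lrrk2, H2-K1 and Nlrc5. Dbt, a subunit of branched-chain amino acid breakdown, was at 18.4, 25.7 and 23.8 CPM and at 0.0618, 0.0543 and 0 (−8.99 ± 0.29, adjusted p = 8.4e-11), and the kinase gene Lrrk2 at 8.45, 9.59 and 8.81 against 0.0309, 0.0543 and 0.0337 (−7.65 ± 0.23).

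Some genes were all but missing from the STAT3 libraries. With at least 1 CPM in the empty vector group and at most 3 counts over the 3 STAT3 libraries, there were 22 such genes, against 2 in the reverse direction, the growth factor gene Fgf14 (0 and 177 counts) and Cplx2 (2 and 103 counts). Nr3c1, the glucocorticoid receptor, had 517 counts with empty vector and 0 with STAT3, at least 205-fold lower when set against 3 counts over the group. Smad1, which carries bone morphogenetic protein signals, had 129 and 0 counts, at least 51.3-fold lower, and Arid5b, a chromatin factor, 171 and 0, at least 68.0-fold lower. In the same empty vector libraries these genes were not level: Mier2 read 1.69, 5.33 and 5.74 CPM, Zfp770 2.51, 5.76 and 7.76, and Ppic, a cyclophilin, 16.7, 9.97 and 8.61. HPC7 with Y640F, set against the same empty vector libraries, read 0.00853 CPM for Nr3c1 and 0 for Smad1, Laptm4b and Mier2, while Pilra, an immune receptor gene, stood at 1.18 there. In HPCLSK where calls made up 2.8% (higher) and 1.79% (lower) of 12552 genes and 30.4% of 13891 genes passed the test of a difference between the lines, several were well expressed with STAT3, Nr3c1 at 94.2, Il10ra at 92.9 and Smad1 at 46.4 CPM.

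**Figure D4:**
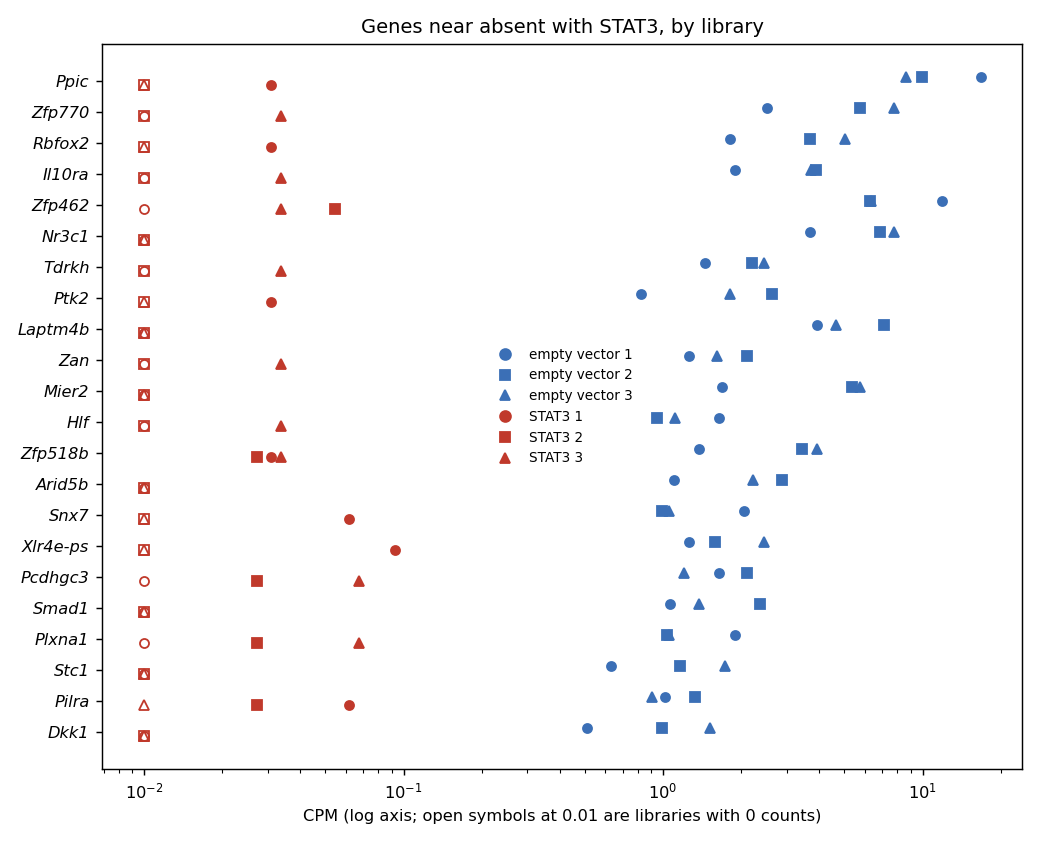
Each row is a gene and each symbol a library, with CPM on a log axis. Blue symbols are empty vector and red symbols STAT3, and open symbols at 0.01 are libraries with 0 counts. Every STAT3 library lies below 0.1 CPM, and for Mier2 the empty vector libraries run from 1.69 to 5.74 CPM.

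Over all genes at 1 CPM or more in both groups, the ratio of the highest to the lowest library had a median of 1.13 with empty vector and 1.06 with STAT3 (10531 genes). There were 88 genes with a ratio of at least 2 among the empty vector libraries, 48 of them highest in replicate 1, and 23 among the STAT3 libraries. For genes called lower the medians were 1.24 and 1.16, and for genes called higher 1.27 and 1.09. Leaving out any 1 of the 6 libraries gave 915 to 952 calls, which kept 192 to 208 of the 230 higher and 628 to 644 of the 686 lower.

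Small shifts ran along whole chromosomes. Of 793 tested genes on chromosome 1, 16.5% read higher with STAT3. Their median on the log2 scale was −0.34, and 77 calls were lower against 7 higher. Chromosome 5 differed in the other direction, with 84.6% of 868 genes above 0, a median of 0.36 and 41 calls higher against 31 lower. The shift of chromosome 1 was present along its length, from −0.31 to −0.42 over 5 equal groups of neighbouring genes. On chromosome 5 it was 0.44 in the first such group and 0.13 in the last, and on chromosome 19 it went from −0.06 to 0.28. On the X chromosome (median −0.15) it went from −0.05 to −0.46, and on chromosome 12 the last group read −0.25 and the first −0.07. Library by library, chromosome 1 genes had medians of −0.30, −0.31 and −0.32 with STAT3 and of 0.14, −0.05 and −0.08 with empty vector, relative to the empty vector mean on the log2(CPM + 0.5) scale. For chromosome 5 the values were 0.32, 0.33 and 0.31 against −0.05, 0.02 and 0.03. On the Y chromosome 4 of 5 tested genes were called lower, among them Ddx3y at 114, 121 and 123 CPM against 13.2, 12.3 and 11.6 (−3.27 ± 0.06, adjusted p = 2.1e-13). HPC7 with Y640F, set against the same empty vector libraries, had medians of −0.34 on chromosome 1, 0.33 on chromosome 5, 0.47 on chromosome 2 and 0.26 on the Y chromosome, and Ddx3y stood at 121 CPM there. The part of these chromosome-wide shifts in the calls of single genes was not tested.

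**Figure D5:**
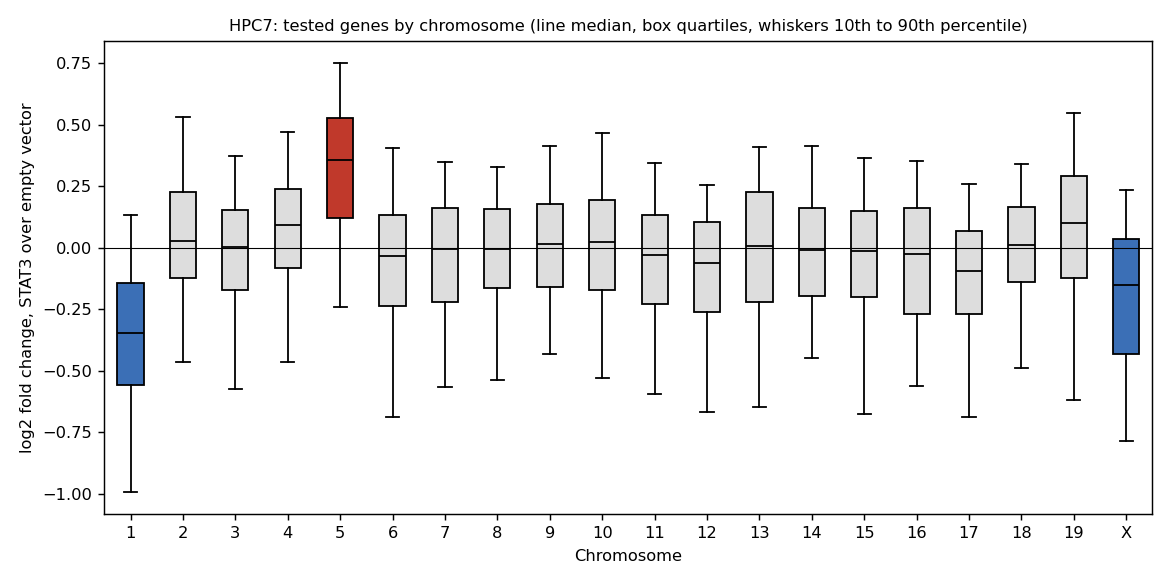
Boxes give the quartiles and median of the log2 fold change (y axis) over the tested genes of each chromosome (x axis), with whiskers from the 10th to the 90th percentile. Chromosome 1 and the X chromosome (blue) lie low and chromosome 5 (red) high, and the 5 tested genes of the Y chromosome, with a median of −3.27, are not drawn.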

How the data were processed

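RNA was sequenced in 18 libraries, single-end. Per the file headers, the authors' deposited values are raw counts per gene from featureCounts 1.5.1 over exons (GENCODE M13, GRCm38, strand setting 2), and the submitters' processing notes name STAR and Trimmomatic. The headers name no option to count multi-mapping or overlapping reads, so genes that share sequence or exons can read low or 0. The labels differ on the library kit. All 9 HPC7 libraries entered edgeR 4.0.16 (R 4.3.3, TMM scaling, filterByExpr, quasi-likelihood test, 6 residual degrees of freedom), contrasting STAT3 with empty vector. The SE is the absolute log2 fold change over the square root of F. Symbols came from a name table (50376 of 50686 IDs). Scripts were tested on simulated data. Alternatives covered scaling, DESeq2 1.42.0, filters, libraries fitted, the call rule, a replicate block and leaving out each library.

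The members and the 52 gene lists were chosen with earlier results of these data known. Named genes are Stat3, Cish, Bcl3, Pim1 and Socs3, the 10 largest and 10 smallest log2 fold changes among called, separate genes at 5 CPM or more, and up to 3 called members per list and direction at 1 CPM or more, with members not called as examples. The ranking by log2 fold change left out Gm, Rik, LOC and accession-like symbols. Arid5b, Ccl9, Ccr2, Csf2, Csf3r, Efnb1, Gbp2, Gfi1, Hbb-bh1, Hbb-y, Hmox1, Hoxa3, Hoxa7, Hoxb3, Ifi204, Ifit1, Il1r1, Il1rap, Isg15, Ly6a, Mier2, Mndal, Pilra, Procr, Psmb8, Psmb9, Rarg, Slamf1, Tlr9, Tubb1, Vdr and Vwf were named after their values were seen. Some genes are not reported here. Near-absent genes have at least 1 CPM in 1 group and at most 3 counts over the other, and bounds and 95% intervals there (exact, from counts) cover counting error only. A floor of 3 counts was 0.0807 to 0.130 CPM per library. RefSeq promoters matched 9173 of 12682 tested symbols, too few for shares over gene sets. HPC7 and HPCLSK RNA came from different flow cells, so line and run cannot be told apart.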

Additional observations from a re-analysis of the deposited data

Results flagged for a closer look

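Of 24 named genes tested, 20 had a STAT3 change that differed between HPC7 and HPCLSK by edgeR's test of the difference over all 18 RNA libraries (HPCLSK minus HPC7, in log2). With 4218 of 13891 genes (30.4%) past an adjusted p under 0.05, such a difference was common, and line and sequencing run cannot be told apart. Stat3 itself had a log2 fold change of 0.76 in HPCLSK and 2.15 in HPC7, a difference of −1.39. Cish, at 4.81 and 4.79 CPM in HPCLSK, differed by −1.42, while Bcl3 differed by 2.85, Pim1 by 1.28 and Socs3 by 1.41. For risers of HPC7 the differences were −1.63 for Prag1, −1.56 for Zcwpw1, −2.11 for Draxin, −2.24 for Cd200r4, −1.75 for Abcb9 and −2.77 for Lat2. Draxin did not pass the low-count filter in HPCLSK alone, so its difference rests on very low counts there. Prag1 was at 0.342 CPM with empty vector and 0.513 with STAT3 in HPCLSK. Its difference was the 1 that was lost when libraries were left out or a replicate block was fitted. Lat2 read 236 and 122 CPM in HPCLSK.

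The 4 that did not pass were Muc20 and Zfp462 (adjusted p = 0.9999 each, not estimable in HPCLSK), Gnaz (−0.98, adjusted p = 0.061) and Pdgfb (−0.41, adjusted p = 0.672).

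Genes chosen for the largest or smallest HPC7 values, the risers above and the genes here, lean to wide differences by that choice, and theirs are given as a description. The differences were 7.53 for Pycard, 8.66 for H2-K1, 9.13 for Nlrc5, 8.86 for Dbt, 8.13 for Lrrk2 and 8.44 for Zfp770. They were 10.28 for Nr3c1, 11.34 for Laptm4b and 12.05 for Ppic, sizes that rest on counts at or near 0 in HPC7 with STAT3. In HPCLSK, H2-K1 was at 467 and 1014 CPM in the empty vector and STAT3 groups, and Pycard at 87.6 and 79.0.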

How the results depend on the processing

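The excess of lower over higher calls was present under every alternative run, and 0 genes were called in opposite directions. A minimum of 5 CPM in 3 libraries gave 340 called genes of 9484 tested, 78 higher and 262 lower, against 916 of 12683 in the main fit. Calls thus fell by a larger share than genes tested. In the main fit 14.3% of genes at 1 to 5 CPM were called lower, against 0.497% at 100 CPM or more. The adjusted p alone gave 6165, of which 2956 were higher and 3209 lower, so that 47.95% were higher against 25.11% with the fold minimum. DESeq2 gave 213 higher and 655 lower. Leaving out 1 library gave 915 to 952 calls, 218 to 257 higher and 683 to 707 lower. The members changed more than these totals. Of the 230 higher calls of the main fit 192 to 208 were kept, and of the 686 lower calls 628 to 644. With edgeR's test against a fold of 1.5 there were 922 calls, which held 152 of the 230 and 566 of the 686. The chromosome Y median ranged from −3.30 to −3.09 over the same fits, being −3.16 without empty vector replicate 3 and −3.09 without STAT3 replicate 2, and the cause was not tested. The chromosome 1 median was −0.25 without empty vector replicate 1. The replicate numbers do not pair the samples (correlations of deviations 0.0481, −0.0818 and −0.0693), and the replicate block gave 923 calls, 232 higher and 691 lower. Under the block Il12a and Cxcr5 fell just below the fold minimum, which left 1 of 27 chemokine and cytokine genes higher in place of 3.

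Of 1797 recomputed values of the 132 named genes, 1764 stayed on their side of the threshold, 32 lost the call, 1 gained it (Socs3) and 0 reversed. The 312 recomputed line differences included 1 loss and 3 gains. Depth limits what can be said of genes with 0 counts.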

Other observations

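Some of the clearest differences lay in genes outside the lists, chosen here after their values were seen. Chd3, a helicase subunit of the NuRD chromatin remodelling complex on chromosome 11 at 69343273 to 69369406, stood at 139, 144 and 127 CPM with empty vector and at 3.06, 3.10 and 2.67 with STAT3 (−5.53 ± 0.08 by edgeR, adjusted p = 3.7e-14). HPC7 with Y640F, against the same empty vector libraries, read 14.5 CPM, and HPCLSK read 429 with empty vector and 528 with STAT3. Smo, the signal transducer of the Hedgehog pathway, was at 103, 107 and 96.5 CPM against 23.2, 28.7 and 28.4 (−1.93 ± 0.07), and Y640F stood at 67.9. Far2, which reduces fatty acyl groups to alcohols, fell from 42.2, 42.3 and 37.1 CPM to 2.63, 2.63 and 3.27, with Y640F at 0.393.

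Gyg, glycogenin, which primes glycogen synthesis, was at 298 ± 28.0 and 128 ± 1.16 CPM (−1.23 ± 0.06), and Bpgm, which makes 2,3-bisphosphoglycerate, at 191 ± 23.2 and 91.4 ± 3.12 (−1.06 ± 0.07). The amine oxidase gene Maoa, on the X chromosome, was at 47.3, 45.7 and 47.6 CPM against 12.2, 12.1 and 11.9. In the other direction Sgpl1, the lyase that degrades sphingosine 1-phosphate, rose from 43.3, 42.8 and 42.6 CPM to 106, 103 and 108 (1.30 ± 0.05), and the cadherin gene Cdh17 stood at 582 CPM with STAT3, 291 with empty vector and 141 with Y640F.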
